A study of Mus musculus with 4 samples.

Results

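The baseline transcriptome of sorted periosteal cells was described from the 2 wild-type libraries of a study with 4 bulk RNA-seq libraries. The 2 libraries were chosen by their labels, and the other 2 libraries, from Sfrp4-/- mice, were not used. The wild-type mice were CtskCre;mTmG;wt, aged 4 weeks and untreated. They carried Cre recombinase under the control of Ctsk, the cathepsin K gene, and the mTmG reporter, so that cells with a history of Ctsk expression made GFP. Long-bone periosteum was scraped and digested with collagenase, and GFP-positive, CD200-positive cells were sorted. The sort excluded cells bearing CD45, CD31, Ter119, Thy1.2, 6C3 or CD105. Each library was made from pooled cells of 3 mice, so the spread between the libraries is a spread between pools, and any SD below is over 2 pools. The study calls the sorted cells periosteal stem cells. Of 22046 protein-coding genes in the count table, 10552 had at least 1 CPM (counts scaled to a library total of 1000000) in both libraries and are called expressed below. The libraries held 17119332 and 17669306 counts, so that 1 count was worth 0.0584 CPM in library 1 and 0.0566 CPM in library 2.

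The periosteum is the sheet on the outer surface of bone, with an outer fibrous layer and an inner layer that holds bone-forming precursors. Osteoblasts secrete type I collagen and a set of acidic proteins that mineral is laid down on, and some of them become osteocytes inside the bone. Cathepsin K is the main collagen-degrading protease of osteoclasts, the bone-resorbing cells of the blood lineage, so Ctsk-driven Cre can mark osteoclasts as well as periosteal cells. In a bulk sample, fewer cells of a type and less RNA per cell cannot be told apart. Levels of single genes are compared with each other as TPM, which are counts divided by the gene length in the deposited table and scaled to a total of 1000000 in each library. CPM show how a library's counts are shared out. Every TPM ratio of library 1 over library 2 was 1.22 times the CPM ratio, so folds between the libraries are CPM ratios, and a pair of TPM values stands that much further towards library 1. Sparc, for example, was higher in library 1 by TPM and in library 2 by CPM.

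The 6 marker genes of the population were all abundant. Sparc, which encodes the collagen-binding matrix protein osteonectin (chr11:55394500-55423183, mm10, minus strand), stood at 82534 and 76388 TPM in libraries 1 and 2, a mean of 79461 ± 4346 (SD, n = 2), and ranked 1st of the expressed genes. Spp1, the gene of osteopontin, was at 44357 and 58539 TPM (51448 ± 10028), and Bglap, the gene of osteocalcin, at 27521 and 35027 TPM (31274 ± 5308). The spread of these genes between the pools was small beside the distance to most other genes. Col1a1, encoding the α1 chain of type I collagen, was at 47559 TPM in library 1 and 13902 TPM in library 2, and its CPM were 2.8-fold apart, the widest of the 6 markers. Ctsk itself (chr3:95499256-95509362, mm10, plus strand) was at 1979.7 and 3486 TPM, and Cd200, the surface protein of the positive gate, at 415 and 518 TPM. In CPM, Ctsk differed 2.15-fold and Cd200 1.53-fold between the pools, both higher in library 2.

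Genes of CD45, CD31, CD105, Thy1.2 and 6C3, proteins that the sort excluded, were near the lower end of the scale. Ptprc, encoding CD45, had 88 and 146 counts (0.91 and 1.19 TPM), Pecam1, encoding CD31, had 29 and 21 counts, and Eng, encoding CD105, had 42 and 5 counts. Thy1 had 0 counts in both libraries, which allows up to 0.175 CPM in library 1 and 0.17 CPM in library 2 by a limit of 3 counts that covers counting error only. Enpep, encoding 6C3, had 17 and 0 counts. Among sex-linked genes, Xist had 0 counts in both libraries while Ddx3y, on chromosome Y, had 419 and 628 counts.

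The promoters of 4 of the most abundant bone matrix genes are shown because these genes lead the profile. They are RefSeq entries of GRCm38.p6, each with 250 bases before and 50 bases from the annotated start, read in the direction of the gene. Capitals mark TATAAA, the core of the TATA box, and ACCACA, a core bound by Runt family factors such as RUNX2, on either strand. Bglap lies at chr3:88384417-88384716 on the minus strand, Spp1 at chr5:104434861-104435160 on the plus strand (the first of its entries), Ibsp at chr5:104299037-104299336 on the plus strand and Sparc at chr11:55420031-55420330 on the minus strand.
Bglap: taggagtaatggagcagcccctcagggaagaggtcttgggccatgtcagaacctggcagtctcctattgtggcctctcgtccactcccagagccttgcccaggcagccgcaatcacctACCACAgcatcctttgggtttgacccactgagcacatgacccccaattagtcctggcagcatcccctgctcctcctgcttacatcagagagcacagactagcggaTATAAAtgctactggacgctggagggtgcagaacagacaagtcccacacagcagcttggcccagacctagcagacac
Spp1: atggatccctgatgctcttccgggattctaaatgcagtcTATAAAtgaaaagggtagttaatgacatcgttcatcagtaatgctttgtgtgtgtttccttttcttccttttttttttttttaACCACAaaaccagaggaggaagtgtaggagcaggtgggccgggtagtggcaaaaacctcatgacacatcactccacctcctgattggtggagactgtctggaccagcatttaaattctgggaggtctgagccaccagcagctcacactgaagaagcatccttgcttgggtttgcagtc
Ibsp: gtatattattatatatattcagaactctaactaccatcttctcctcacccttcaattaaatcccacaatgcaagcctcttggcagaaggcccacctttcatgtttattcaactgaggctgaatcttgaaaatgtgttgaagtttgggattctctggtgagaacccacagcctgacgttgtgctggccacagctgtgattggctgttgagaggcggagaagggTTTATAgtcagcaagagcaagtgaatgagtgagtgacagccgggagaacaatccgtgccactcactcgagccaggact
Sparc: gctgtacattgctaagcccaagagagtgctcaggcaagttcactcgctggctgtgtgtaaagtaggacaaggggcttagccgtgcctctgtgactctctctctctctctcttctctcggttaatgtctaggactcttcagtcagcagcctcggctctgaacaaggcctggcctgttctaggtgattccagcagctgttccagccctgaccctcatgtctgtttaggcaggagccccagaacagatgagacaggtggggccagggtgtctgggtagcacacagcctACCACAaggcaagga

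Bglap held ACCACA with its first base 132 bases before the start and TATAAA 27 bases before it. Spp1 held ACCACA 128 bases and TATAAA 211 bases before the start, Ibsp held the reverse complement TTTATA 28 bases before it, and Sparc held ACCACA after the start. The windows of Ctsk and Cd200 held neither. On either strand, TATAAA was found in 13.6% of 32851 promoter entries, in 6.95% of the 10758 entries that cover 8385 of the expressed genes and in 17.5% of 97 entries, which cover 73 of the 100 most abundant genes by CPM. ACCACA was found in 16.8%, 12.2% and 13.4% of the same 3 sets. These are matches of letters in a short window and say nothing of binding.

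Abundance was concentrated in few genes, and more so in library 1. The 10 most abundant protein-coding genes took 38.9% of all counts in library 1 and 28.4% in library 2, and the 100 most abundant took 53.2% and 45.2%. Of protein-coding counts, 50% lay in 63 genes in library 1 and in 147 genes in library 2. The highest 10 of one library included 8 of the highest 10 of the other, and the highest 100 included 73 of 100. Protein-coding genes held 99.1% and 98.3% of all counts. Of the 22046 protein-coding genes, 1086 (4.93%) were at 100 TPM or more in both libraries. Below them, a further 3902 (17.7%) reached 10 TPM in both and a further 4863 (22.1%) reached 1 TPM in both, so that 9851 (44.7%) reached 1 TPM, while 8129 (36.9%) had 0 counts in both.

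**Figure D1:**
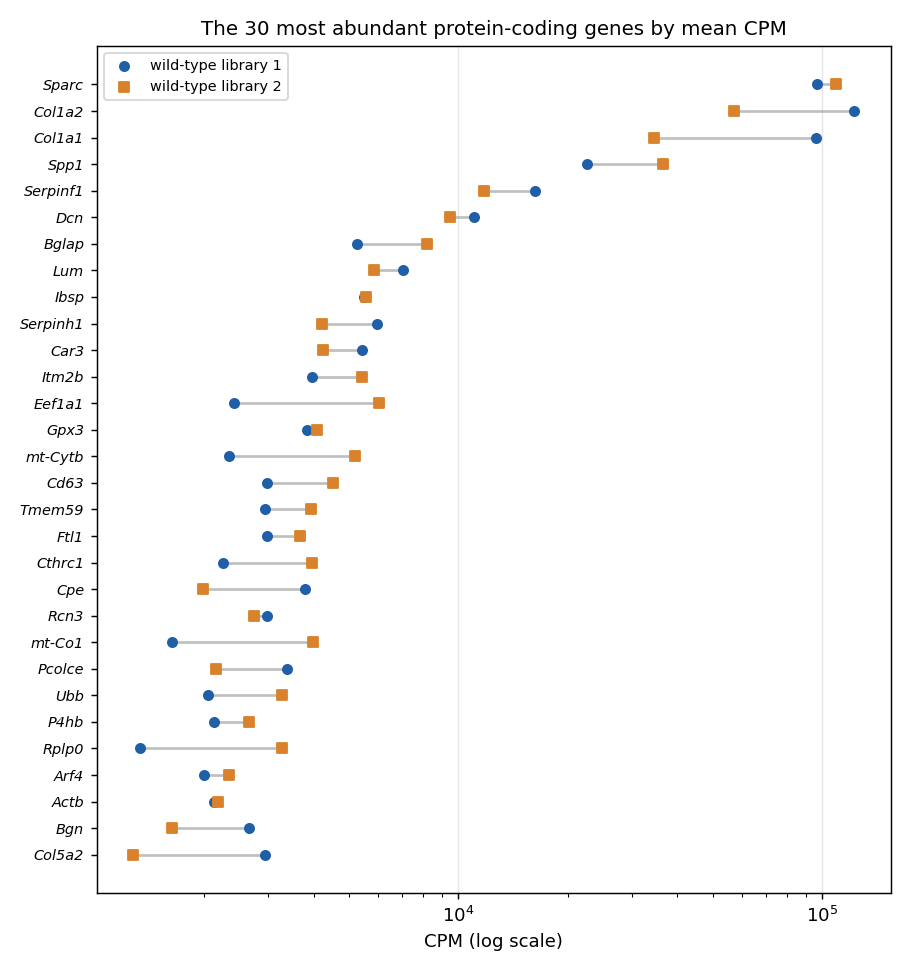
CPM on a log axis of the 30 protein-coding genes with the highest mean CPM, 1 row a gene, with a circle for wild-type library 1 and a square for wild-type library 2. Sparc stands at 96468 and 109267 CPM, while Col1a2 and Col1a1 lie apart between the libraries, at 122535 and 57248 CPM and at 96309.8 and 34453 CPM.

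Secreted matrix proteins and the enzymes that process them filled most of the highest places. By share of counts, as CPM without regard to length, the first 10 places went to Sparc, Col1a2, Col1a1, Spp1, Serpinf1, Dcn, Bglap, Lum, Ibsp and Serpinh1. Serpinf1 encodes a secreted serpin, pigment epithelium-derived factor, whose loss causes brittle bones in humans, and was at 22246 and 13233 TPM. Dcn and Lum, small proteoglycans that bind collagen fibrils, were at 6137 and 4303 TPM and at 9304 and 6355 TPM. Ibsp, the gene of bone sialoprotein, was at 8618 and 7126 TPM, and its CPM were 1.01-fold apart. Serpinh1, the collagen chaperone HSP47, was at 7905 and 4561 TPM.

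Below them came Car3, a carbonic anhydrase, at 6161 and 3921 TPM, and Gpx3, a secreted glutathione peroxidase, at 6863 and 5977 TPM. Cthrc1, a secreted protein with a collagen-like repeat, was at 4596 and 6599 TPM, and Rcn3, a calcium-binding protein of the endoplasmic reticulum, at 5605 and 4218 TPM. Genes of general use among the 30 were Eef1a1, Ftl1, Ubb, Actb, Rplp0 and the mitochondrially encoded mt-Cytb and mt-Co1. Of the 30 highest genes by CPM, 23 were among the 30 highest by TPM. Bglap, a short gene, moved to place 3 by TPM, and Bglap2, a neighbouring osteocalcin gene, entered the highest 20 at 4228 and 6418 TPM. Of the 50-base stretches in Bglap and Bglap2 transcripts, 56.6% and 88.2% also occur in another annotated gene, so the split of counts between them is uncertain.

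Genes of the osteoblast lineage were present almost without exception. Of 25 listed genes, 24 were at 1 TPM or more in both libraries and 18 at 100 TPM or more, with a median of 416 TPM, where 44.7% of all protein-coding genes reached 1 TPM and their median was 0.827 TPM. The list took 35.7% and 25.8% of all counts. Alpl, the alkaline phosphatase of mineralizing cells, was at 1530.5 and 575 TPM, and Pth1r, the parathyroid hormone receptor, at 1299 and 733 TPM. Ifitm5, a membrane protein of bone-forming cells, was at 706 and 519 TPM. Smpd3, a sphingomyelinase needed for mineralization, was at 359 and 125 TPM. Both libraries held markers of matrix production and of mineralization at high level. The gene at 0 counts in both libraries was Phospho1, a phosphatase of matrix vesicles.

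Osteocyte genes were mixed. Dmp1, encoding an acidic matrix protein of late osteoblasts and osteocytes, was at 1034 and 891 TPM, and Phex, encoding a peptidase of phosphate control, at 51.1 and 39.8 TPM. Of the markers of embedded osteocytes, Sost, Mepe and Fgf23 were low. Sost, which encodes the Wnt inhibitor sclerostin, was at 4.12 and 4.86 TPM, Mepe was at 10.9 and 5.61 TPM, and Fgf23, the phosphate-regulating hormone gene, had 0 counts in both libraries. Of the 10 listed genes, 9 reached 1 TPM in both libraries and 5 reached 10 TPM.

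Genes of osteoclasts other than Ctsk were also well represented. Acp5, encoding tartrate-resistant acid phosphatase, was at 1825 and 2364 TPM, and Mmp9, a gelatinase, at 1105 and 869 TPM. Subunit gene Atp6v0d2 of the proton pump was at 144 and 217 TPM. The fusion genes Dcstamp and Ocstamp were at 55.0 and 89.6 TPM and at 56.3 and 59.0 TPM. In all, 14 of 15 listed genes reached 1 TPM in both libraries (93.3%, beside 44.7% of all protein-coding genes). Of these, 9 reached 10 TPM, and the median of the list was 35.7 TPM. The receptor genes were lower, with Tnfrsf11a, the receptor for the osteoclast-inducing ligand RANKL, at 4.55 and 3.98 TPM, and the calcitonin receptor gene Calcr at 0.145 and 0.69 TPM. The ligand gene Tnfsf11 was at 12.0 and 13.1 TPM and that of its decoy receptor, Tnfrsf11b, at 28.3 and 28.2 TPM. The summed level of the osteoclast list was 2952 and 3756 CPM. What part of the Ctsk level osteoclast RNA makes up was not tested.

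Cartilage genes differed in part between the pools. Of 18 listed genes, 10 reached 1 TPM in both libraries (55.6%, beside 44.7% of all protein-coding genes). Of the 11 expressed, 5 were more than 2-fold higher in library 1 and 6 were within 2-fold, where 7.18% of all expressed genes were more than 2-fold higher in library 1. The summed level was 4621 CPM in library 1 and 1749 CPM in library 2. Most of that sum came from Col11a2 and Col11a1, fibrillar collagens that bone cells also make, at 886 and 242 TPM and at 566 and 183 TPM. Chad, encoding the cartilage matrix protein chondroadherin, was at 182 and 151 TPM, and its CPM were 1.02-fold apart. Col2a1, Acan, Col9a3 and Matn3 were lower in library 2 on both scales. Col2a1, the main cartilage collagen, was at 106 and 24.0 TPM, Acan, the gene of aggrecan, at 4.66 and 0.642 TPM, and Col9a3 at 14.3 and 0.389 TPM. Matn3 had 137 counts in library 1 and 0 in library 2. The regulator Sox9 was at 8.47 and 5.0 TPM and Prg4, of joint surfaces, had 0 counts in both. Col10a1, the collagen of hypertrophic cartilage, had 1064 and 67 counts, a 16.4-fold difference in CPM. Acan, Col9a3, Matn3 and Col10a1 were named after their values were seen.

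Fibrous-layer genes were present in part. Of 20 genes listed for tendon and the fibrous layer, 12 reached 1 TPM in both libraries (60.0%, beside 44.7% of all protein-coding genes). After Lum and Dcn, the highest was Fmod, the gene of fibromodulin, at 224 and 95.6 TPM. Tendon regulator Scx was at 57.4 and 78.4 TPM, Tnmd, encoding the tendon membrane protein tenomodulin, at 36.2 and 107 TPM, and Postn, named for the periosteum, at 66.2 and 56.7 TPM. Markers of fibroblast progenitors in other tissues were near 0, with Pi16 at 0 counts, Dpp4 at 0.0899 and 0.332 TPM and Clec3b at 0.191 and 0 TPM.

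Markers of skeletal stem and progenitor cells were mostly detected at low to moderate level. Of 24 listed genes, each with a count in at least 1 library, 18 reached 1 TPM in both libraries and 8 reached 10 TPM, with none at 100 TPM and a median of 4.27 TPM. The summed level was 465 and 495 CPM. Cxcl12, the niche chemokine, had the highest mean, at 26.4 and 42.5 TPM, with Pdpn, encoding podoplanin, at 29.9 and 35.6 TPM and Ddr2, a collagen receptor, at 41.5 and 21.2 TPM. Prrx1, the limb mesenchyme regulator, was at 19.3 and 16.3 TPM and Pdgfra at 21.6 and 11.1 TPM. Lepr, a marker of marrow stromal cells, was at 4.59 and 4.91 TPM. Ly6a, encoding SCA-1, was at 18.4 and 1.87 TPM, and its CPM were 8.05-fold apart. Gli1 was at 0.606 and 0 TPM and Grem1 at 0 and 0.65 TPM. The list does not hold Cd200, the population's own surface marker. Its members are mostly receptors and regulators, so its median cannot be set against that of the osteoblast list, which holds abundant matrix genes, and the label of the cells as stem cells was not tested.

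**Figure D2:**
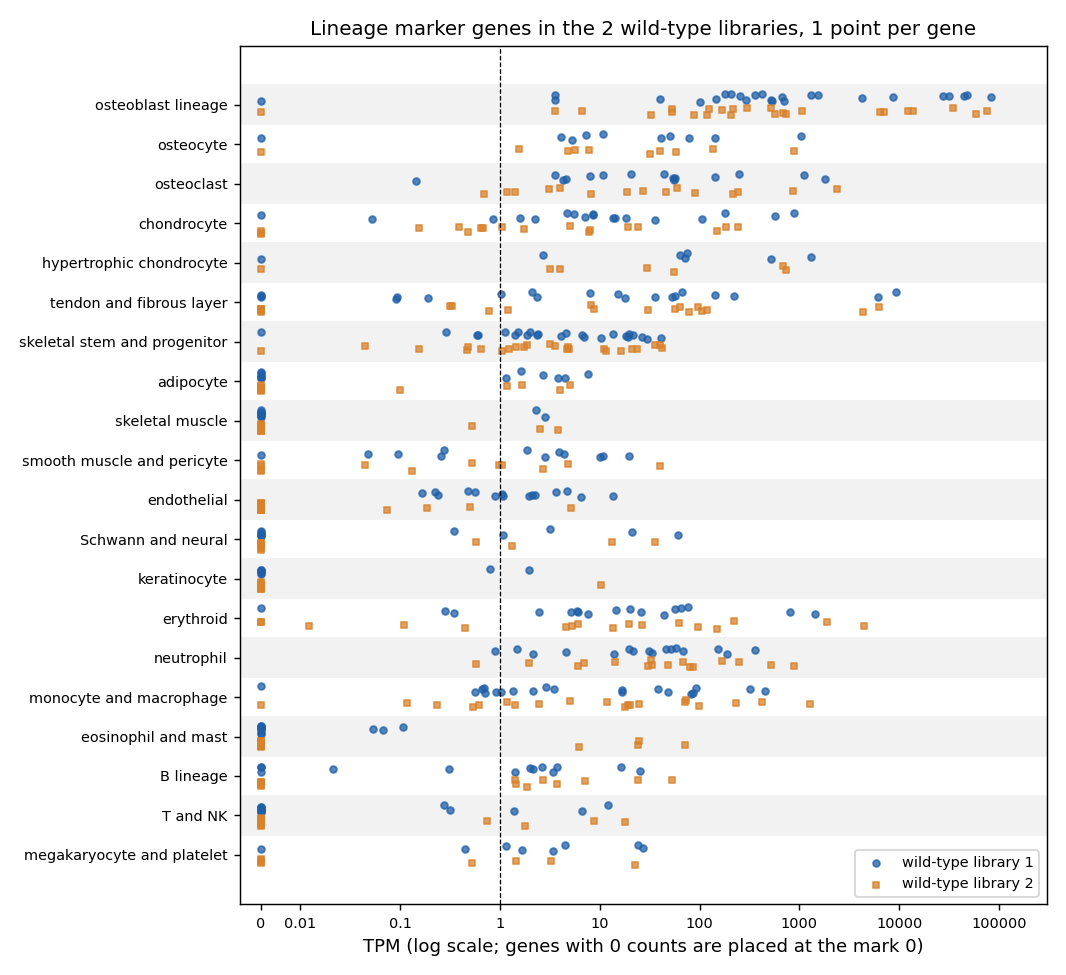
TPM on a log axis of each gene in 20 lineage lists, with circles for wild-type library 1 and squares for wild-type library 2. Genes with 0 counts are drawn at the mark 0, and the dashed line is 1 TPM. Osteoblast, osteocyte, osteoclast and neutrophil lists lie mostly above 1 TPM, while muscle and keratinocyte lists lie mostly at 0. Several endothelial genes are at 0 in library 2 alone, and eosinophil genes such as Prg2 have values in library 2 alone.

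Several lineages were at or near 0 in most of their listed genes. Of 14 skeletal muscle genes, 11 had 0 counts in both libraries, beside 36.9% of all protein-coding genes. Pax7, Myod1 and Myog were among the 11, and the list summed to 4.03 and 3.74 CPM. Of 9 keratinocyte genes, 7 had 0 counts, and Epcam, an epithelial adhesion gene, had 21 and 142 counts. The Schwann and neural list was divided, with 6 of 11 genes at 0 counts in both libraries, the Schwann cell regulator Sox10 among them. Its sum of 96.3 and 71.5 CPM came mostly from the tubulin gene Tubb3, at 35.2 and 25.1 CPM, and the adhesion gene Ncam1, at 56.2 and 43.9 CPM. Adipocyte genes summed to 37.9 and 32.2 CPM, with Plin1, Cfd and Lep at 0 counts and Lpl at 4.5 and 5.03 TPM. Adipoq was at 1.64 and 0 TPM. In smooth muscle, Myh11 had 0 counts while Acta2, also made by stromal cells, was at 19.8 and 40.6 TPM.

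Some small signals came from a single pool. Endothelial genes summed to 38.1 CPM in library 1 and 5.09 CPM in library 2, and Cdh5, Kdr, Tie1 and Cldn5 had counts in library 1 and 0 counts in library 2. The eosinophil genes Prg2, Ear1 and Ear2 had 400, 117 and 119 counts in library 2 and 0 in library 1. Across all protein-coding genes, 9 genes were at 5 CPM or more in library 1 with 0 counts in library 2, and 4 were at that level in library 2 with 0 in library 1. The 9 included the endothelial genes Egfl7 and Gpihbp1, the platelet integrin gene Itga2b and Matn3. The 4 were Prg2, Ear1, Ear2 and Alox15, an enzyme of eosinophils. The genes of this paragraph were named after their values were seen.

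Blood cell genes were measurable in both pools, with higher sums in library 2 for the erythroid, neutrophil and macrophage lists. The erythroid list summed to 701 and 2152 CPM, the neutrophil list to 439 and 951 CPM, and the monocyte and macrophage list to 558 and 1185 CPM. Hbb-bs, a globin gene, was at 1448 and 4423 TPM, and Hba-a1 at 801 and 1907 TPM. Counts of globin genes are split among near-identical copies. Of the neutrophil granule genes, Ngp was at 359.7 and 894 TPM and S100a9 at 154 and 517 TPM. Macrophage genes covered a wide range, from Lyz2 at 324 and 1276 TPM and Cd68 at 458 and 425 TPM to Adgre1 at 0.702 and 1.43 TPM and Cx3cr1 at 0 counts. Csf1r, the receptor for macrophage colony-stimulating factor, was at 38.8 and 24.9 TPM, and it and Cd68 are also made by osteoclasts. T cell genes were nearly absent, with Cd3e, Cd3g, Cd4 and Cd8a at 0 counts. B lineage genes Cd79a and Cd79b were at 25.3 and 23.9 TPM and at 16.5 and 52.4 TPM. How far these cells contribute to genes that several lineages share was not tested.

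Among 216 measured surface genes, 121 reached 1 TPM in both libraries and 18 reached 100 TPM, beside 44.7% of all protein-coding genes at 1 TPM. Cd63, a tetraspanin of late endosomes, was at 2622 and 3257 TPM, Bsg, encoding basigin, at 2526 and 2504 TPM and Cd9 at 1248 and 1941 TPM. Cd59a, an inhibitor of complement, was at 450.0 and 637 TPM and Cd302, a lectin-like receptor, at 345 and 713 TPM. Of 23 integrin genes, 10 reached 1 TPM in both libraries (43.5%, near the share of all protein-coding genes). Itgb1, the shared β1 subunit, was at 303 and 181 TPM and Itgb5 at 128 and 78.8 TPM. The highest α subunit gene was that of the collagen-binding Itga11 at 20.8 and 10.4 TPM. Adhesion between cells was represented by Gja1, encoding connexin 43 of gap junctions, at 526 and 342 TPM, by N-cadherin (Cdh2) at 94.8 and 47.0 TPM and by osteoblast cadherin (Cdh11) at 91.2 and 65.5 TPM. Cdh15, encoding M-cadherin, was at 147 and 56.7 TPM, while E-cadherin (Cdh1) had 0 counts.

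Receptors for growth signals were mostly at low to moderate level. Of 44 receptor tyrosine kinase genes, 19 reached 1 TPM in both libraries (43.2%, beside 44.7% of all protein-coding genes) and 5 reached 10 TPM. Ryk, a Wnt-binding pseudokinase receptor, was the highest at 154 and 122 TPM, followed by Fgfr1 at 54.6 and 23.7 TPM. Fgfr4, Erbb4, Musk, Ltk and Ntrk3 had 0 counts. In the cytokine group, the interferon-gamma receptor gene Ifngr1 was at 214 and 140.2 TPM and Ifnar2 at 92.2 and 79.1 TPM. Lifr, the receptor for leukaemia inhibitory factor, was at 88.1 and 52.4 TPM, and its partner Il6st at 7.9 and 5.97 TPM. Of the BMP and TGF-β receptors, Bmpr1a was at 13.3 and 13.5 TPM and Tgfbr2 at 13.6 and 9.89 TPM, while Bmpr1b had 0 counts. Of the G protein-coupled receptors, Pth1r led, followed by the lysophospholipid receptor genes S1pr3 at 121 and 66.5 TPM and S1pr1 at 85.8 and 67.5 TPM. Ramp1, a partner of calcitonin-type receptors, was at 266 and 588 TPM, although Calcrl was at 0.0388 and 0 TPM. The Notch receptor gene Notch1 was at 0.213 and 0.232 TPM. Sdc2 and Gpc1, heparan sulphate proteoglycans of the membrane, were at 397 and 383 TPM and at 400.3 and 199 TPM.

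The 278 genes listed as secreted took 43.2% and 31.7% of all counts. Of them, 186 reached 1 TPM in both libraries (66.9%, beside 44.7% of all protein-coding genes). Collagen chains alone took 23.0% and 9.63% of counts. Of 31 chains, 22 reached 1 TPM in both libraries (71.0%, beside 44.7% of all protein-coding genes). The type V chains Col5a2, at 992 and 352 TPM, and Col5a1, at 674 and 225 TPM, were on the level of the type XI chains given above. The type III chain Col3a1 was at 163 and 86.9 TPM. Collagens of basement membrane were low, with Col4a1 at 3.35 and 0.984 TPM. Of the other matrix genes, Mfap2, a microfibril protein, was at 893 and 418 TPM, Efemp2, a fibulin, at 517 and 296 TPM and Fn1, the gene of fibronectin, at 65.4 and 21.2 TPM. Biglycan (Bgn) was at 1409 and 707 TPM and osteomodulin (Omd), a proteoglycan of bone, at 665 and 1058 TPM.

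Of the secreted lists, that of proteases, inhibitors and collagen-processing proteins had the most genes at high level. In it, 22 of 45 were at 100 TPM or more, beside 4.93% of all protein-coding genes. Not all its members are secreted, such as the chaperone gene Serpinh1, the membrane-bound Mmp14 and lysosomal cathepsins. Mmp2, a gelatinase, was at 1799.7 and 824 TPM, Mmp13, a collagenase, at 515 and 681 TPM and Mmp14, a membrane-bound collagenase, at 399 and 177 TPM. Their inhibitor Timp1 was at 1700.4 and 1874 TPM. Pcolce, an enhancer of procollagen processing, was at 2866 and 1494 TPM, Bmp1, the procollagen C-proteinase, at 431 and 169 TPM and Lox, the collagen cross-linking enzyme, at 675 and 362 TPM. Mmp3 and Timp4 had 0 counts.

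Signalling proteins were made at lower level than matrix. Of 68 growth factor genes, 47 reached 1 TPM in both libraries (69.1%, beside 44.7% of all protein-coding genes) and 5 reached 100 TPM. Cyr61 and Wisp1, both of the CCN family, were at 553 and 336 TPM and at 485 and 261 TPM. Clec11a, an osteogenic growth factor, was at 486 and 355 TPM. Of the listed BMP genes, Bmp3 had the highest mean, at 82.3 and 51.4 TPM, with Bmp4 at 51.0 and 64.9 TPM, Bmp7 at 49.6 and 32.4 TPM and Bmp2 at 32.7 and 29.2 TPM. The platelet-derived growth factor genes Pdgfd and Pdgfa were at 119 and 139.8 TPM and at 117 and 81.8 TPM. Igf1 was at 1.34 and 1.97 TPM and Igf2 had 0 counts in both libraries.

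Of 34 Wnt ligands and secreted modulators, 13 reached 1 TPM in both libraries (38.2%, beside 44.7% of all protein-coding genes) and 9 had 0 counts. Wif1, which encodes a secreted Wnt inhibitor, was the highest at 759.7 and 768 TPM (764 ± 5.55, SD, n = 2), and its CPM were 1.24-fold apart. The inhibitor gene Dkk1 was at 98.1 and 134 TPM, Frzb at 122 and 32.9 TPM and Sfrp4 at 61.7 and 66.1 TPM. Of the ligands, Wnt5b was at 79.9 and 109 TPM and Wnt4 at 79.6 and 31.4 TPM, and the other ligands were under 10 TPM in both libraries. Of 43 chemokine and cytokine genes, 20 reached 1 TPM in both libraries (46.5%, beside 44.7% of all protein-coding genes). Another 13 had 0 counts in both, as had 36.9% of all protein-coding genes, and they included Il6, Tnf, Il1a, Csf2 and Csf3. Among chemokines, Ccl9 was at 119.9 and 329.8 TPM. Galectin-1 (Lgals1) was at 1159 and 1575 TPM.

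Genes for folding and export of secreted proteins, collagen-modifying enzymes and stress factors among them, were expressed throughout. All 30 listed genes reached 10 TPM in both libraries and 24 reached 100 TPM, with a median of 307 TPM. Of all 22046 protein-coding genes, 4988 reached 10 TPM in both and 1086 reached 100 TPM. P4hb, protein disulphide isomerase and a subunit of prolyl 4-hydroxylase, was at 2411 and 2461 TPM. Crtap and Fkbp10, needed for modification and folding of collagen, were at 1703 and 947 TPM and at 1409.9 and 590.3 TPM. Ddit3, a gene of strong endoplasmic reticulum stress, was at 15.7 and 16.8 TPM. Cell cycle genes were present at a median of 10.6 TPM, and the list summed to 1261 and 1258 CPM. Of that sum, Cdkn1a, encoding an inhibitor of cyclin-dependent kinases, gave 519 and 521 CPM. The cyclin gene Ccnd2 gave 229 and 170.3 CPM. Rrm2, a subunit of ribonucleotide reductase, was at 42.8 and 45.7 TPM, and Mki67, a marker of cycling cells, was at 1.34 and 1.31 TPM. By TPM, Cdkn1a was at 474 and 388 TPM.

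The deposited table names a family for 1451 protein-coding transcription factor genes, of which 716 were expressed and 24 reached 100 TPM in both libraries. Of all 22046 protein-coding genes, 10552 were expressed and 1086 reached 100 TPM in both. C2H2 zinc finger genes were the largest expressed family, with 302 of 565 genes, while 49 of 229 homeobox genes were expressed. In the bZIP family, 36 of 48 genes were expressed and 7 reached 100 TPM in both libraries. Id3, a bHLH protein without a DNA-binding region that restrains other bHLH factors, was highest at 1901 and 2152 TPM. Xbp1, Creb3l1 and Atf4, bZIP regulators of the secretory pathway and stress, were at 814 and 628 TPM, at 786 and 294 TPM and at 490.2 and 468 TPM. Creb3l1, known to act on type I collagen genes in osteoblasts, was higher in library 1 by 1.13 on the log2 CPM scale. Tsc22d1 was at 512 and 514 TPM. The family column also includes proteins with other main roles, such as Cers2, a ceramide synthase with a homeobox-like region.

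Some regulators of bone formation were among the 20 highest factors by mean TPM. Sp7 ranked 8 and Dlx5 14, while Runx2 ranked 83. Sp7, encoding osterix, was at 426 and 208 TPM, Dlx5 at 209 and 118 TPM and Twist1, a factor of mesenchyme, at 229 and 239 TPM. Runx2, required for osteoblasts, was at 40.2 and 32.8 TPM, and its partner Cbfb at 170.3 and 144 TPM. Runx1 and Runx3 were below 5 TPM in both libraries. Dlx3 was at 182 and 88.6 TPM, Mef2c at 74.2 and 55.6 TPM and Tcf7, a Wnt effector, at 114 and 65.6 TPM. Of 56 skeletal factors listed, 38 reached 1 TPM in both libraries (67.9%, beside 44.7% of all protein-coding genes). Of these, 22 reached 10 TPM, while Ebf2 and Glis1 were among those at 0 counts. Of 26 factors listed for other lineages, 11 had 0 counts in both libraries, beside 36.9% of all protein-coding genes. Another 8 reached 1 TPM in both (30.8%, beside 44.7% of all protein-coding genes). Highest of them was Spi1, the myeloid factor PU.1 that osteoclasts also need, at 85.6 and 99.2 TPM. Nfatc1, the osteoclast regulator, was at 20.5 and 18.7 TPM and Klf1, the erythroid factor, at 14.5 and 19.6 TPM. Early response genes were present, with Fos at 147 and 174 TPM and Junb at 84.0 and 96.9 TPM.

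**Figure D3:**
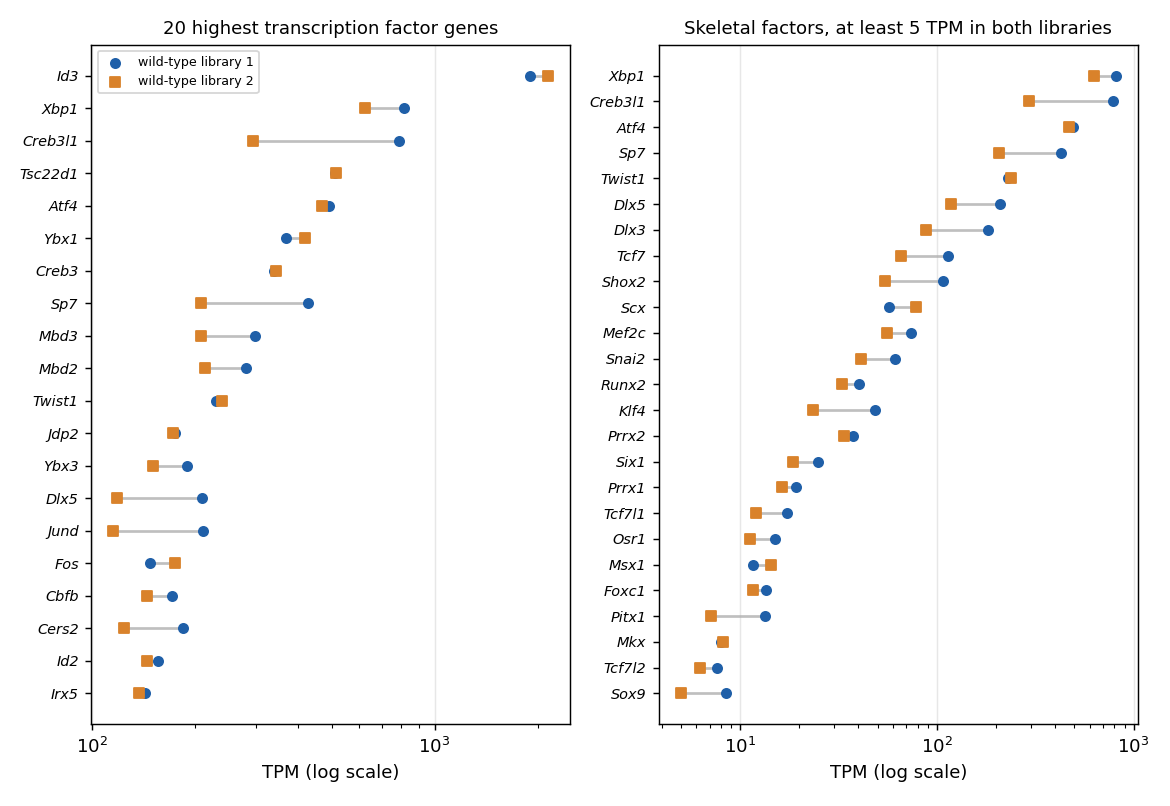
TPM on a log axis of the 20 transcription factor genes with the highest mean TPM (left) and of skeletal factors at 5 TPM or more in both libraries (right), with circles for wild-type library 1 and squares for wild-type library 2. Id3 stands at 1901 and 2152 TPM, and Sp7, Creb3l1 and Dlx5 lie further apart than Twist1 or Atf4.

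Over the full range of abundance, the libraries ranked genes alike. Over the 10552 expressed genes, Pearson's r of log2 CPM was 0.936 and Spearman's rho 0.933, as descriptions over genes that share a library. Within narrower classes of mean CPM, rho was lower. It was 0.161 from 1 to 5 CPM, 0.439 from 5 to 20, 0.65 from 20 to 100, 0.596 from 100 to 500 and 0.643 above. The median gene was 1.4-fold apart, and 8650 genes (82.0%) were within 2-fold. More than 2-fold higher in library 1 were 758 genes (7.18%), and more than 2-fold higher in library 2 were 1144 (10.8%). Of these 1902 genes, 39.9% were higher in library 1. With TMM factors this split was 52.1%, and with median-of-ratios factors 55.3%, as the median log2 ratio over all expressed genes moved to 0.03 and 0.06 from -0.08. Agreement was closest at moderate abundance, with 88.9% of the 3445 genes of 20 to 100 CPM within 2-fold, beside 72.1% of the 2041 genes of 1 to 5 CPM and 80.5% of the 210 genes of 500 CPM and over. The common dispersion from edgeR was 0.12, a coefficient of variation of 34.6% beyond counting error. For genes of at least 50 CPM in both libraries it was 0.0773, or 27.8%. The labels give the libraries as separate samples, and their counts were not duplicates of each other.

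**Figure D4:**
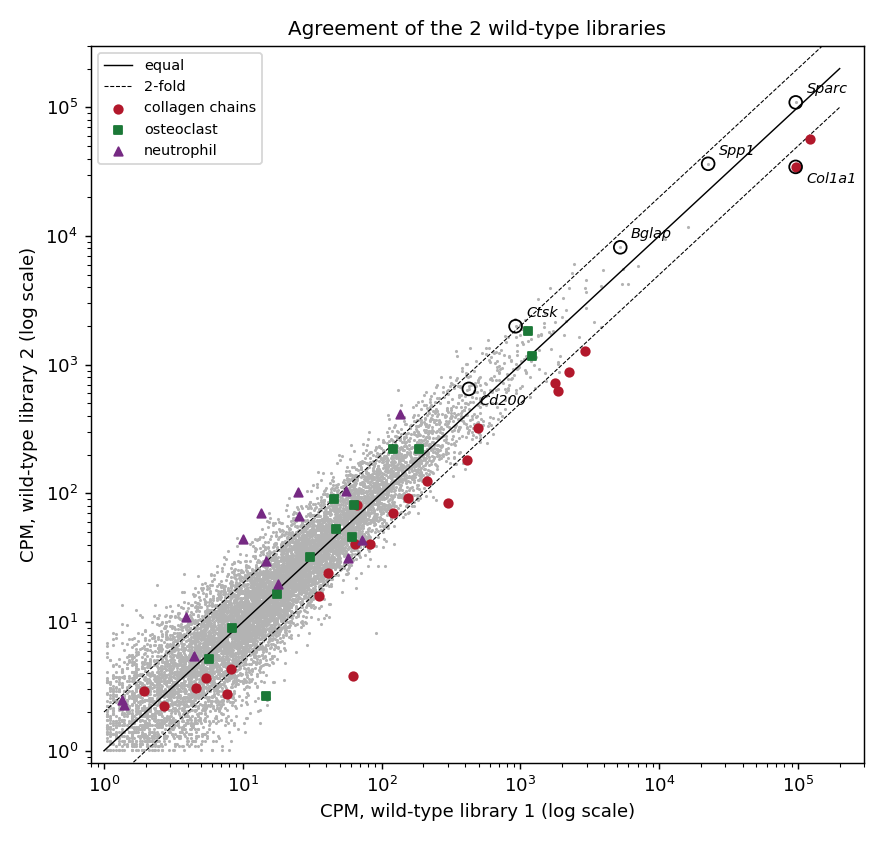
CPM in wild-type library 1 (x axis) and library 2 (y axis), both on log scales, of the 10552 expressed protein-coding genes, with lines of equality and of 2-fold difference. Collagen chains (red circles) lie mostly below the line of equality, neutrophil genes (purple triangles) mostly above it and osteoclast genes (green squares) along it. The 6 markers are circled.

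The differences between the pools ran along gene groups. Of 24 expressed collagen chains, 22 were higher in library 1 and 12 by more than 2-fold, beside the 7.18% of all genes above, and their median log2 ratio was 0.97, beside -0.08 over all genes. Of all expressed genes, 45.0% were higher in library 1. Receptor tyrosine kinase genes were higher in library 1 in 20 of 22 cases, 6 of them by more than 2-fold, with a median of 0.68. G protein-coupled and guidance receptor genes were higher in library 1 in 21 of 26 cases, 9 of them by more than 2-fold, with a median of 0.78. All 76 expressed genes of cytosolic ribosomal proteins were higher in library 2, 55 of them by more than 2-fold beside 10.8% of all genes, with a median of -1.31. All 10 expressed mitochondrially encoded protein genes were higher in library 2 (median -1.22). Neutrophil genes had a median of -0.98 and erythroid genes one of -0.76. The osteoclast list, with a median of -0.1, and the cell cycle list, with one of -0.25, lay nearer to all genes. With TMM or median-of-ratios factors the ribosomal, mitochondrial, collagen, kinase, neutrophil and erythroid medians kept their signs, while the osteoclast median became 0.02 and 0.04.

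These differences also followed transcript length. Of the 2109 expressed genes with the shortest transcripts, of 258 to 1774 bases, 18.6% were higher in library 1 (median log2 ratio -0.56). Of the 2111 with the longest, from 5060 bases, 60.3% were higher in library 1 (median 0.18). Leaving out ribosomal protein and mitochondrially encoded genes gave 19.3% for the short class, and leaving out collagen chains gave 60.0% for the long class. With median-of-ratios factors the shares were 25.7% and 67.7%. Several blood cell genes are also in the short class, such as Hbb-bs (628 bases), S100a9 (519 bases) and Lyz2 (1316 bases). The part that transcript length has in the differences of collagen, ribosomal and blood cell genes was not tested.

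**Figure D5:**
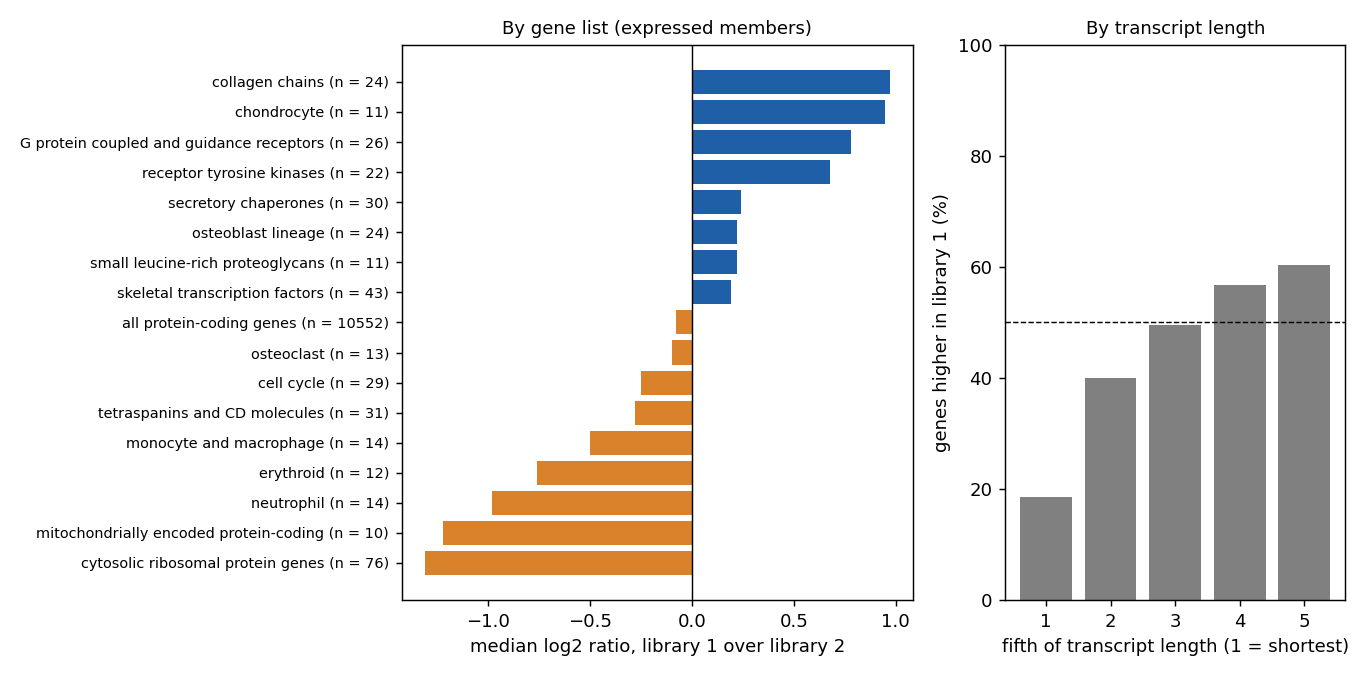
Left, median log2 ratio of CPM in wild-type library 1 over library 2 for the expressed members of 16 chosen gene lists and classes, each with at least 10 expressed members, with all protein-coding genes for comparison. Blue bars are higher in library 1 and orange bars in library 2, and the lists drawn range from 0.97 for collagen chains to -1.31 for cytosolic ribosomal protein genes. Right, percentage of genes higher in library 1 in each of 5 equal classes of transcript length, 18.6% in the shortest and 60.3% in the longest, with 50% dashed.

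Single genes of at least 50 CPM with the largest ratios fell into the same groups in part. Higher in library 1 were Col2a1 at 303 and 83.9 CPM and Gaa, encoding a lysosomal glucosidase, at 94.4 and 27.4 CPM. Col11a2, Col1a1, Frzb and Sdc3 were also among the 10 highest ratios. Higher in library 2 were Lyz2, a lysozyme of myeloid cells, at 131 and 634 CPM, Ccr1, a chemokine receptor, at 21.7 and 92.2 CPM and Chil3, a chitinase-like protein of myeloid cells, at 35.0 and 147 CPM. The other 7 were Hbb-bs, S100a9, Immp1l and the ribosomal protein genes Rps27a, Rps25, Rpl35 and Rpl17. Bone and osteoclast genes picked for small ratios in CPM were Runx2 (1.0-fold apart), Ibsp (1.01-fold), Mmp9 (1.04-fold), Dmp1 (1.05-fold) and Sparc (1.13-fold). Others differed more, such as Ctsk (2.15-fold), Col1a2 (2.14-fold) and Creb3l1 (2.18-fold). Of 24 expressed genes of the osteoblast list, 18 were within 2-fold, beside 82.0% of all expressed genes.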

How the data were processed

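Gene counts of 2 wild-type libraries were used, out of 4 in the series, and 2 columns of the other samples were left out. The authors deposited whole-number read counts per gene with no normalization, beside the coordinates, length, biotype and transcription factor family of each gene. The submitters' processing notes name the mm10 build and 4 tools, which are CASAVA, HISAT2 (version 2.0.5), featureCounts (version 1.00-p3) and DESeq2 (version 1.20.0), without their roles. No source used here states the counting options. Per the labels' protocols the low-input SMARTer libraries were not directional, so reads of genes that overlap on opposite strands are mixed. Amplified reads without molecular identifiers are not independent molecules, so limits cover counting error only.

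CPM used library totals, and TPM used the deposited gene length. No groups were compared, so there is no test. Factors and dispersion came from edgeR 4.0.16 and DESeq2 1.42.0 in R 4.3.3, levels from Python 3.11.15 with pandas 2.3.3, and the scripts were tested on simulated data. The 41 gene lists hold 843 symbols, of which 2 were not matched. Members and lists were chosen with earlier results of these data known. Named genes were the 30 highest by CPM, 20 highest by TPM, 20 highest transcription factors, the 3 highest of each list, the markers, the sort and skeletal factor genes, lineage genes at 0 counts and the 10 largest library ratios each way among genes of at least 50 CPM. Other genes, nearly all members of the lists, were picked with their values in view. Of 201 genes under the rule, 15 share over 20% of 50-base stretches with another gene in GENCODE M21 and 7 overlap another gene over more than 20% of exon bases, Jund (52.6%) and Ftl1 (34.6%) among them. The table gives 27 protein-coding genes a date in place of a name, and they entered by identifier. Alternatives were other thresholds, TMM and median-of-ratios factors, other totals, transcript length, and each library alone. Some genes of the lists are not reported here by name, although the counts over lists include them.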

Additional observations from a re-analysis of the deposited data

How the results depend on the processing

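The number of expressed protein-coding genes, 10552, stayed within 1.5-fold under every alternative run, from 7851 at 5 CPM in both libraries to 13917 with any count, and was 11184 to 11245 in single libraries. The 716 expressed transcription factor genes (transcription factors) became 428 at 5 CPM in both libraries and were 780 to 796 in single libraries. For the agreement of the 2 libraries, the 1902 genes over 2-fold apart became 961 of 7851 at 5 CPM in both libraries and 3031 of 13917 without a filter, and fewer or more genes entered by construction. With TMM factors 1855 genes and with median-of-ratios factors 1869 genes were over 2-fold apart, but the share of them higher in library 1 was 52.1% and 55.3%, beside 39.9% with library totals, and the median log2 ratio of all genes was 0.03 and 0.06, beside -0.08. The share of counts in the 10 highest genes was 28.4% to 38.9% in single libraries (abundance concentration). Using transcript length in place of the deposited gene length, a choice made after seeing the data, moved 16 of 197 named genes by over 1.5-fold, Dcn to a mean of 12326 TPM from 5220.3 TPM. Counts of members at 1 TPM stayed within 1.5-fold under every alternative in 35 of 41 lists, and endothelial genes numbered 9 in library 1 alone and 1 in both. No paired analysis was possible because a single group was described. With 2 pools, a difference between them cannot be assigned to animals, sorting or library preparation.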
